A study of Homo sapiens with 6 samples.

Results

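The 10 genes of the cadherin switch were described in 6 RNA sequencing libraries: the cadherins CDH1 and CDH2, the transcription factors SNAI1, SNAI2, ZEB1, ZEB2, TWIST1 and TWIST2, and the splicing regulators ESRP1 and ESRP2. They were taken by symbol, and all 10 of 10 were found among the 19903 genes of each table. The libraries came from the lung cancer cell lines A549, H1299 and H2030, each with a control vector without insert (empty) or with one that carries NHLRC1, which encodes the E3 ubiquitin ligase malin. All cells were at passage 5, and there was 1 library for each line and vector. No label says whether the cultures were independent. No library repeats a line and vector, so the limma p-values below rest on how far the malin minus empty difference varied between lines. This spread may be technical or may hold vector differences that vary by line, and these cannot be told apart here.

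CDH1 encodes E-cadherin, the adhesion molecule of epithelial junctions, and CDH2 encodes N-cadherin, which is typical of mesenchymal and neural cells. In the epithelial-mesenchymal transition, zinc-finger factors of the SNAI and ZEB families bind E-box sequences and repress CDH1 and other epithelial genes, and the basic helix-loop-helix factors TWIST1 and TWIST2 act in the same programme. ESRP1 and ESRP2 bind RNA and keep the epithelial splice forms of their target genes, and ZEB factors are known to repress ESRP genes.

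Values were FPKM, fragment numbers divided by transcript length and library total, a scale on which genes can be compared per length. NHLRC1 was measured at 1.21, 2.85 and 0.18 FPKM with the empty vector in A549, H1299 and H2030, and at 6.82, 119.2 and 3.69 FPKM with the malin vector, which is higher in 3 of 3 lines. Estimated depth was 8300000 to 10700000 fragments a library. The FPKM column of the malin library labelled H2030 is headed with the name of a human embryonic kidney line, so both libraries of this pair are called the libraries labelled H2030. Of 10 kidney developmental genes, 7 reached 1 FPKM in both of these libraries and 4 in each of the other libraries, with summed levels of 34.2 and 39.0 FPKM against 13.4 to 23.5. Of 12 lung epithelial markers, 8 were in the tables, summing to 18.0 and 19.4 FPKM in A549, 2.78 and 3.54 in H1299, and 10.02 and 12.4 in the libraries labelled H2030. Their defining genes SFTPB, SFTPC and SFTPD were at or below 0.16 FPKM throughout, and NKX2-1, a lung lineage factor, was listed at 0 in both A549 libraries, at 0.77 and 0.60 FPKM in H1299, and at 1.85 and 3.78 in the libraries labelled H2030. The 5 epithelial markers summed to 3913 and 3212 FPKM in A549 and 952.6 and 952.1 in H1299. They summed to 180.6 and 156.0 in the libraries labelled H2030. Among them KRT7 was at 1302 and 1269 FPKM in A549 and at most 1.24 elsewhere, while EPCAM was highest in the libraries labelled H2030. Markers of other cell types were low or mixed. The 4 endothelial genes summed to at most 0.53 FPKM. The 7 fibroblast genes summed to 5.58 and 5.60 in A549 and 0.36 and 0.77 in H1299. In the libraries labelled H2030 they summed to 12.7 and 16.1. Immune markers (4 genes) summed to 2.44 to 4.95 FPKM, with LYZ at 2.07 to 4.07 in every library, CD14 at up to 2.28 and the pan-leukocyte gene PTPRC at most 0.07. The part of identity or admixture in the differences of the libraries labelled H2030 was not tested.

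On GRCh38 with GENCODE release 29 (the build hg38 of the submitters' processing notes), CDH1 lies at chr16:68737225-68835548 on the plus strand and CDH2 at chr18:27950966-28177446 on the minus strand. ZEB1 lies at chr10:31318495-31529814 (plus), ZEB2 at chr2:144364364-144524583 (minus), SNAI1 at chr20:49982999-49988886 (plus), TWIST1 at chr7:19020991-19117672 (minus) and TWIST2 at chr2:238848032-238910543 (plus). ESRP2 lies at chr16:68229111-68238102 (minus) on the same chromosome as CDH1. Exons of CDH1, CDH2, ZEB1, ZEB2, TWIST1 and ESRP2 overlap annotated genes on the other strand. No source used here gives the strand setting of the counting, and without strand the reads of such partners cannot be told apart. Exons of ESRP2 also overlap the annotated genes AC020978.5 and MIR6773 on its own strand, and their part in the ESRP2 values was not tested.

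The RefSeq promoter table (GRCh38.p14) had entries for 4 of the 10 genes: CDH2, ZEB1, ZEB2 and TWIST2. The table was searched on both strands for the letters CAGGTG, which form the E-box typical of SNAI and ZEB factors and read CACCTG on the opposite strand. It was also searched for the general E-box, CANNTG, which contains the former. Across the table, 17.5% of 35116 windows held the first and 61.8% the second. The following 2 stretches hold E-boxes upstream of the repressor gene ZEB1 and of the cadherin with the highest level in every library. Each is the first window of its gene by position that holds an E-box and overlaps no annotated untranslated region. The table's other windows were 1 more for CDH2, at its annotated 5′ end, with no E-box, 1 for TWIST2 with none, 1 for ZEB2 with 1, and 6 more for ZEB1, of which 3 had none. A ZEB1 window not shown, chr10:31318966-31319215, holds both CACCTG and CAGGTG. Each stretch is the 250 bases before an annotated start, printed 5′ to 3′ on the gene's strand, with E-boxes in capitals.
ZEB1, chr10:31318167-31318416, plus strand: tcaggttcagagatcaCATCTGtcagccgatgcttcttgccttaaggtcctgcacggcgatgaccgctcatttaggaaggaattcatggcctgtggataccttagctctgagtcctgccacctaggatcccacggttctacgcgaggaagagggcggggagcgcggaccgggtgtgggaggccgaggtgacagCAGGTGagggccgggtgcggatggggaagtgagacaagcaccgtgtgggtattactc
CDH2, chr18:28036642-28036891, minus strand: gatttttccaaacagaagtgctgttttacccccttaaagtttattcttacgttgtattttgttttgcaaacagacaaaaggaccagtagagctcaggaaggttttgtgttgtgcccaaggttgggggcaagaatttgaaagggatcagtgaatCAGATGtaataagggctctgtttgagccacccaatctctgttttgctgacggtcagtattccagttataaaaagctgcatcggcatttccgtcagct
In the ZEB1 stretch, CATCTG begins 234 bases and CAGGTG 57 bases before the start. In the CDH2 stretch, CAGATG begins 97 bases before the start, which lies in an intron of the longer CDH2 transcript. A match describes the letters only and says nothing of binding.

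CDH2 was the highest of the 10 genes in each of the 6 libraries, with 67.6% to 91.5% of all listed genes at or below it. CDH1 was the lowest in both H1299 libraries. The plot of all levels shows these orders beside the regulators.

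**Figure D1:**
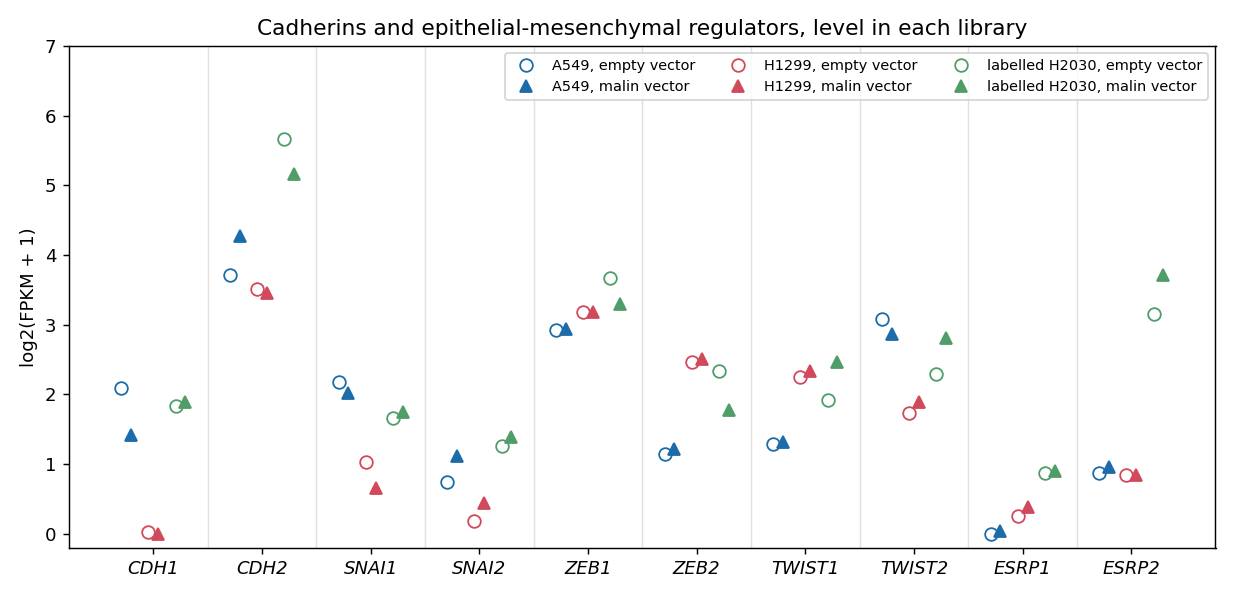
Level of each of the 10 genes as log2(FPKM + 1), with 1 point per library, open circles for the empty vector, filled triangles for the malin vector and 1 colour per line. CDH2 lies above the other genes in every library, CDH1 is at 0.02 and 0.00 FPKM in H1299, and ESRP2 is 7.94 and 12.17 FPKM in the pair labelled H2030 against 0.79 to 0.94 elsewhere.

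E-cadherin transcripts were present in A549 and the libraries labelled H2030 and almost absent from H1299. CDH1 was at 3.27 FPKM with the empty vector and 1.67 with the malin vector in A549, at 0.02 and 0.00 in H1299, and at 2.56 and 2.71 in the libraries labelled H2030. These values stand for about 161, 83, 1, 0, 102 and 128 fragments, and 3 fragments would be 0.0633 FPKM in the malin library of H1299. Against that limit, CDH1 was at least 26.4-fold higher in the malin library of A549 and at least 42.8-fold higher in the malin library labelled H2030. H1299 was lower than A549 by a log2(FPKM+1) difference of -1.74 (SE 0.21, limma adjusted p = 0.000991) and the libraries labelled H2030 were higher than H1299 by 1.85 (SE 0.21, limma adjusted p = 0.00065). Both differences depend on the added 1 and are no bound on the fold. A549 and the libraries labelled H2030 could not be ordered, with a difference of 0.11 (95% interval -0.42 to 0.63, limma adjusted p = 0.681), and their ranges overlap. In bulk libraries, fewer cells with a transcript and less transcript per cell cannot be told apart.

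N-cadherin was detected in every library and was highest in the libraries labelled H2030. CDH2 was at 12.13 and 18.37 FPKM in A549 (empty, then malin vector), 10.42 and 9.99 in H1299, and 49.57 and 34.91 in the libraries labelled H2030. The last 2 values lie above all others, and both H1299 values lie below both A549 values. On the log2(FPKM+1) scale, the libraries labelled H2030 exceeded A549 by 1.42 (SE 0.24, limma adjusted p = 0.00287) and H1299 by 1.93 (SE 0.24, limma adjusted p = 0.000886). H1299 minus A549 was -0.51 (95% interval -1.10 to 0.08, limma adjusted p = 0.112) and did not pass the threshold. It passed in the fit of only those lines (limma adjusted p = 0.0139), where 76.9% of all tested genes were called, against 61.6% with all 6 libraries. In that fit most genes passed, so the call says little of CDH2 itself. It also passed without either library labelled H2030, in fits that called a larger share of all genes. Without the empty-vector A549 library it passed too, with a difference of -0.93.

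The ratio of CDH2 to CDH1 in FPKM was 3.71 and 11 in A549 and 19.4 and 12.9 in the libraries labelled H2030. In the empty-vector library of H1299 it was 521, resting on 1 CDH1 fragment, and in the malin library CDH1 was listed at 0. CDH2 therefore exceeded CDH1 in every library, the A549 libraries included. The bar plots give both cadherins by line and vector.

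**Figure D2:**
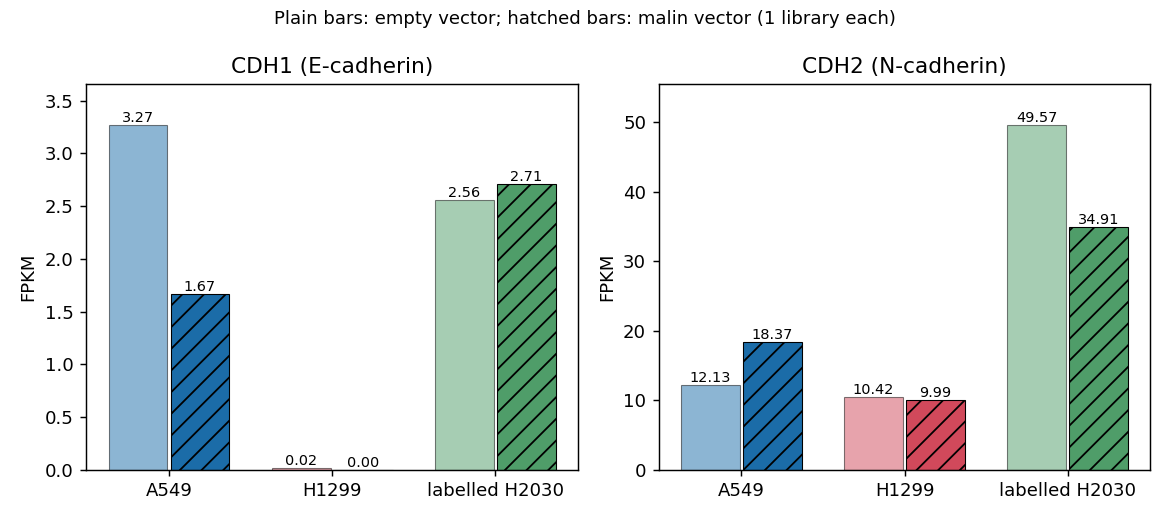
FPKM of CDH1 (left) and CDH2 (right) by cell line, with 1 bar per library, plain for the empty vector and hatched for the malin vector, and each value printed above its bar. CDH1 is 1.67 to 3.27 FPKM outside H1299 and at most 0.02 within it, and CDH2 is 9.99 to 18.37 FPKM in A549 and H1299 and 34.91 and 49.57 in the libraries labelled H2030.

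FPKM was scaled to library totals, and the libraries labelled H2030 differed in the bulk of genes. The median gene was 0.29 higher than in A549 and 0.22 higher than in H1299 (log2), against -0.03 and -0.02 after median-of-ratios scaling, which sets the bulk of genes equal. Of 12184 protein-coding genes tested, 45.0% were called higher and 22.1% lower than in A549, and 30.5% and 34.1% after that scaling. Against H1299 the shares were 40.9% and 23.8%, and 30.6% and 32.7% after scaling. For CDH2 the differences after scaling were 1.07 against A549 (limma adjusted p = 0.00702) and 1.66 against H1299 (limma adjusted p = 0.00108). For CDH1 they were -0.15 against A549 (limma adjusted p = 0.567), a turned sign, and 1.70 against H1299 (limma adjusted p = 0.000866).

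Among the Snail factors, SNAI1 (Snail) was highest in A549 and SNAI2 (Slug) was low throughout. SNAI1 was at 3.51 and 3.04 FPKM in A549, 1.05 and 0.57 in H1299, and 2.17 and 2.34 in the libraries labelled H2030. The 3 pairs do not overlap, and H1299 had the least SNAI1. H1299 was lower than A549 by a difference of -1.25 (SE 0.16, limma adjusted p = 0.00128), and the libraries labelled H2030 were higher than H1299 by 0.86 (SE 0.16, limma adjusted p = 0.00485). The second difference was 0.69 after median-of-ratios scaling (limma adjusted p = 0.0127), 0.26 after quantile normalization (limma adjusted p = 0.261) and 0.69 without the malin library of H1299 (limma adjusted p = 0.0614). The difference of the libraries labelled H2030 minus A549 was -0.39 (95% interval -0.79 to 0.01, limma adjusted p = 0.0774), and -0.65 after median-of-ratios scaling (limma adjusted p = 0.0151). It also passed without the malin library labelled H2030, at -0.57, in a fit that called a larger share of all genes.

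SNAI2 (chr8:48917604-48921740, minus strand) was at 0.68 and 1.16 FPKM in A549, 0.14 and 0.36 in H1299, and 1.39 and 1.63 in the libraries labelled H2030, from about 3 to 31 fragments. Its mean was under the minimum of 1 FPKM for testing. Fitted with no minimum, H1299 was lower than A549 by -0.61 (limma adjusted p = 0.0105), and the libraries labelled H2030 were higher than A549 by 0.40 (limma adjusted p = 0.0309) and than H1299 by 1.01 (limma adjusted p = 0.00216). In that fit 43.4%, 52.6% and 51.3% of genes were called in these comparisons. Both Snail genes were thus lowest in H1299, and their FPKM ratio (SNAI1 over SNAI2) ran from 1.44 in the malin library labelled H2030 to 7.50 in the empty-vector library of H1299.

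ZEB1 spanned the narrowest relative range of the 10 genes, and ZEB2 differed between A549 and the other lines. ZEB1 was at 6.58 and 6.66 FPKM in A549, 8.12 and 8.03 in H1299, and 11.70 and 8.85 in the libraries labelled H2030. The values of the 3 pairs follow each other without overlap. H1299 minus A549 was 0.25 (95% interval -0.11 to 0.61, limma adjusted p = 0.184) and the libraries labelled H2030 minus H1299 was 0.30 (95% interval -0.06 to 0.66, limma adjusted p = 0.119), so these neighbours did not pass. Both passed without the malin library labelled H2030 (0.25 and 0.49), in a fit that called a larger share of all genes. Compared with A549, the libraries labelled H2030 were higher by 0.55 (SE 0.15, limma adjusted p = 0.0171), but by 0.23 after median-of-ratios scaling (limma adjusted p = 0.194). That call was also lost without the empty-vector or the malin library of A549 (0.45 and 0.66, limma adjusted p = 0.168 and 0.0648). ZEB1-AS1, which overlaps ZEB1 on the other strand, was at 1.20 and 1.32 FPKM in A549, 2.72 and 2.31 in H1299, and 5.99 and 4.68 in the libraries labelled H2030, and its part in the ZEB1 values was not tested.

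ZEB2 was at 1.21 and 1.32 FPKM in A549, 4.53 and 4.67 in H1299, and 4.04 and 2.44 in the libraries labelled H2030. Both A549 values lie below all others. H1299 was higher than A549 by 1.31 (SE 0.20, limma adjusted p = 0.0021) and the libraries labelled H2030 by 0.88 (SE 0.20, limma adjusted p = 0.00852), or 0.63 after median-of-ratios scaling (limma adjusted p = 0.0223). The call against A549 was lost without the empty-vector A549 library (0.72, limma adjusted p = 0.0808) and after quantile normalization (0.36, limma adjusted p = 0.172). The libraries labelled H2030 minus H1299 was -0.43 (95% interval -0.91 to 0.05, limma adjusted p = 0.101), and -0.64 after median-of-ratios scaling (limma adjusted p = 0.0224). This difference was -0.73 and passed without the empty-vector library labelled H2030, in a fit that called a larger share of all genes. ZEB1 exceeded ZEB2 in all 6 libraries, by 5.44 and 5.05 times in A549, 1.79 and 1.72 times in H1299, and 2.90 and 3.63 times in the libraries labelled H2030.

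The paralogues TWIST1 and TWIST2 had opposite orders in A549 and H1299. TWIST1 was at 1.44 and 1.48 FPKM in A549, 3.75 and 4.04 in H1299, and 2.78 and 4.51 in the libraries labelled H2030. TWIST2 was at 7.49 and 6.32 FPKM in A549, 2.32 and 2.69 in H1299, and 3.90 and 5.99 in the libraries labelled H2030. TWIST2 was thus 5.20 and 4.27 times TWIST1 in A549, 0.619 and 0.666 times in H1299, and 1.40 and 1.33 times in the libraries labelled H2030. For TWIST1, H1299 was higher than A549 by 0.99 (SE 0.18, limma adjusted p = 0.00413), and the libraries labelled H2030 by 0.89 (SE 0.18, limma adjusted p = 0.00539). The second TWIST1 difference was 0.64 after median-of-ratios scaling (limma adjusted p = 0.0207), and did not pass after quantile normalization (0.36, limma adjusted p = 0.179) or without the malin library of A549 (0.75, limma adjusted p = 0.0579). H1299 and the libraries labelled H2030 could not be ordered for TWIST1, at -0.10 (95% interval -0.53 to 0.33, limma adjusted p = 0.642).

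For TWIST2, H1299 was lower than A549 by -1.17 (SE 0.20, limma adjusted p = 0.00332). Against H1299, the libraries labelled H2030 were higher by 0.74 (SE 0.20, limma adjusted p = 0.0174), but by 0.53 after median-of-ratios scaling (limma adjusted p = 0.0589). That call was also lost without the empty-vector or the malin library of H1299 (limma adjusted p = 0.105 and 0.101). Against A549, the libraries labelled H2030 differed by -0.43 (95% interval -0.91 to 0.05, limma adjusted p = 0.0989). It passed at -0.74 after median-of-ratios scaling (limma adjusted p = 0.0179). Without the malin library labelled H2030 it passed at -0.70, in a fit that called a larger share of all genes.

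The epithelial splicing regulators were low in A549 and H1299, and ESRP2 was high in the libraries labelled H2030. ESRP2 was at 0.83 and 0.94 FPKM in A549, 0.80 and 0.79 in H1299, and 7.94 and 12.17 in the libraries labelled H2030. The gene reached the mean of 1 FPKM only through the last 2 libraries, so its test is taken from the fit with no minimum. There they were higher than A549 by 2.53 (SE 0.19, limma adjusted p = 0.00101) and than H1299 by 2.60 (SE 0.19, limma adjusted p = 0.00104), and the differences after median-of-ratios scaling were 2.26 and 2.38. A549 and H1299 could not be ordered, at -0.07 (95% interval -0.58 to 0.44, limma adjusted p = 0.835). NFATC3, whose exons overlap ESRP2 on the other strand, was at 8.38 and 7.65 FPKM in A549, 6.60 and 6.38 in H1299, and 11.65 and 12.69 in the libraries labelled H2030, and its part in the ESRP2 values was not tested.

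ESRP1 (chr8:94641074-94707466, plus strand) stayed under 1 FPKM in all libraries. It was at 0.00 and 0.03 FPKM in A549, 0.19 and 0.31 in H1299, and 0.83 and 0.86 in the libraries labelled H2030. Fitted with no minimum, its level was higher in H1299 than in A549 by 0.30 (limma adjusted p = 0.0243), and in the libraries labelled H2030 by 0.86 over A549 (limma adjusted p = 0.00106) and 0.56 over H1299 (limma adjusted p = 0.00331). ESRP2 exceeded ESRP1 in every library, by 31.3 times in the malin library of A549, 4.21 and 2.55 times in H1299, and 9.57 and 14.2 times in the libraries labelled H2030. No ratio exists for the empty-vector A549 library, where ESRP1 was listed at 0.

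Of the 8 genes that reached the minimum, 5 were called between H1299 and A549, with ZEB2 and TWIST1 higher and CDH1, SNAI1 and TWIST2 lower in H1299. The background was 61.6% of the 12184 tested genes, 34.5% higher and 27.2% lower. Between the libraries labelled H2030 and A549, 5 of 8 were called, each of them higher (CDH2, ZEB1, ZEB2, TWIST1 and ESRP2), with a background of 67.0%, 45.0% higher and 22.1% lower. The split was 4 higher and 2 lower after median-of-ratios scaling, and 2 higher and 2 lower after quantile normalization, where 34.6% of genes were higher and 28.4% lower. Between the libraries labelled H2030 and H1299, 5 of 8 were called, again each higher (CDH1, CDH2, SNAI1, TWIST2 and ESRP2), with a background of 64.7%, 40.9% higher and 23.8% lower. It was 4 higher and 1 lower after median-of-ratios scaling, and 3 higher and 1 lower after quantile normalization, where 32.6% of genes were higher and 28.9% lower. ESRP2 counts here although it passed the minimum only where it was high. In the fit with no minimum, which includes genes with little or no signal, 7 of all 10 genes were called in each comparison against 43.4%, 52.6% and 51.3% of 17541 genes. The shares among the 8 tested genes are near the background and are not a result about the 10 genes. The 3 comparisons share libraries, so their values are given side by side only. The interval plot shows which differences clear 0 under both scalings.

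**Figure D3:**
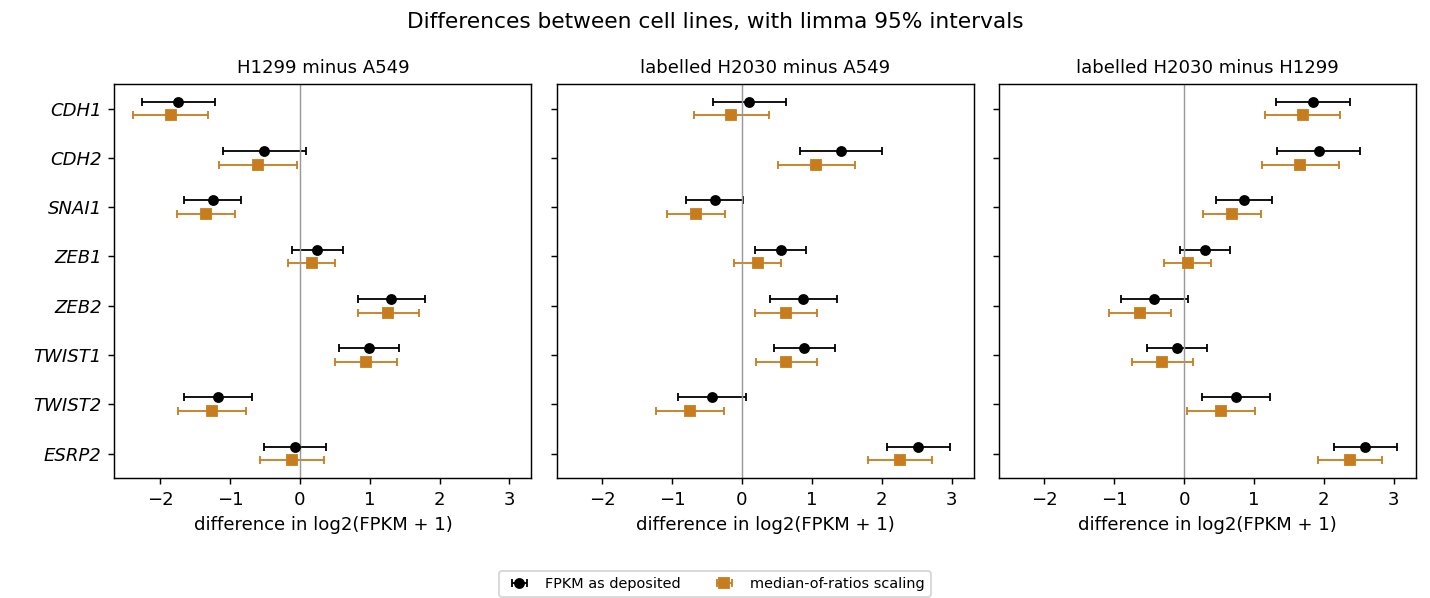
Differences between cell lines in log2(FPKM + 1) for the 8 tested genes, with limma 95% intervals, as black circles for FPKM as deposited and orange squares after median-of-ratios scaling. In the H1299 panel CDH1 (-1.74) lies farthest to the left, and in both panels of the libraries labelled H2030 ESRP2 (2.53 and 2.60) lies farthest to the right, while ZEB1 against A549 moves from 0.55 to 0.23. ESRP2 reached the minimum for this fit only through the libraries labelled H2030.

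None of the 10 genes passed the test between the malin and the empty vector. In the limma fit with cell line as a block, 0 of the 8 tested genes and 0% of the 12184 genes had a Benjamini-Hochberg adjusted p under 0.05, with 213 genes at an unadjusted p under that value. NHLRC1 itself had a difference of 2.93 (SE 0.60) and a limma adjusted p of 0.927. The 95% intervals of the 8 genes ran from -0.64 to 0.21 for CDH1 and from -0.48 to 0.49 for CDH2, and differences of that size were not detectable with these libraries. Of genes simulated with a log2 change of 0.5, 0% were recovered in this comparison of 12184 genes, and 80.5% at a change of 1.

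Within lines the vectors gave values that differed in sign for most genes. With 1 library for each line and vector there is no test of a vector difference within a line, and the intervals given here cover the counting of fragments only, not the spread between cultures. CDH1 in A549 had a malin to empty ratio of 0.511 (exact binomial 95% interval 0.387 to 0.670), and 1.05 (0.805 to 1.38) in the libraries labelled H2030. CDH2 had ratios of 1.51 (1.36 to 1.69) in A549, 0.959 (0.839 to 1.10) in H1299 and 0.705 (0.657 to 0.756) in the libraries labelled H2030. In A549 the malin library thus had less CDH1 and more CDH2 than the empty-vector library beyond counting error, and in the libraries labelled H2030 it had less CDH2.

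ESRP2 had ratios of 1.11 (0.673 to 1.85) in A549, 0.980 (0.572 to 1.67) in H1299 and 1.54 (1.31 to 1.80) in the libraries labelled H2030. TWIST1 had ratios of 1.03 (0.559 to 1.92), 1.08 (0.750 to 1.56) and 1.63 (1.08 to 2.51) in the same order. For both genes the counting interval excludes equality in the libraries labelled H2030 only, and the difference between lines was not tested. The SNAI1 intervals spanned equality in each line, with ratios of 0.869 (0.582 to 1.29), 0.540 (0.214 to 1.27) and 1.07 (0.640 to 1.80). SNAI2 did so too, at 1.75 (0.851 to 3.77), 2.52 (0.576 to 15.1) and 1.18 (0.662 to 2.14). ZEB1, ZEB2, TWIST2 and ESRP1 have several transcripts listed in the tables, so no fragment number was estimated for them.

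On the log2(FPKM+1) scale, ZEB1 differed by 0.02 in A549, -0.01 in H1299 and -0.37 in the libraries labelled H2030, and ZEB2 by 0.07, 0.04 and -0.55. TWIST2 differed by -0.21, 0.15 and 0.51. The pair labelled H2030 was the more variable, with a standard deviation of the malin minus empty difference over all tested genes of 0.40, against 0.18 in A549 and 0.16 in H1299. CDH1 in A549 (-0.68) was the only 1 of the 30 differences past 1.5-fold on this scale, where 0.583% of tested genes were that much lower and 0.542% that much higher. In H1299 0.328% of genes were higher and 0.148% lower by that much, and in the libraries labelled H2030 4.28% and 7.33%.

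Over the 3 lines, the malin minus empty difference was 0.25 ± 0.11 for SNAI2, 0.22 ± 0.28 for TWIST1 and 0.07 ± 0.06 for ESRP1 (mean ± SD, n = 3, exact paired permutation p = 0.25, two-sided). These 3 genes were higher with malin in 3 of 3 lines, and 0.25 is the smallest p that 3 pairs allow. The share of all tested genes higher in 3 of 3 lines was not counted, so this is not a result about these genes. For TWIST1, about 23 and 24 fragments in A549 and 63 and 63 in H1299 (empty, then malin vector) stand behind the sign. ESRP1 was at 0.00 and 0.03 FPKM in A549. CDH1 had a difference of -0.22 ± 0.40 (n = 3, exact paired permutation p = 0.75) and CDH2 of 0.0039 ± 0.53 (n = 3, exact paired permutation p = 1). The remaining genes had means from -0.16 (SNAI1) to 0.21 (ESRP2), each smaller than its SD over lines. The point plot of vector differences shows the spread between lines for each gene.

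**Figure D4:**
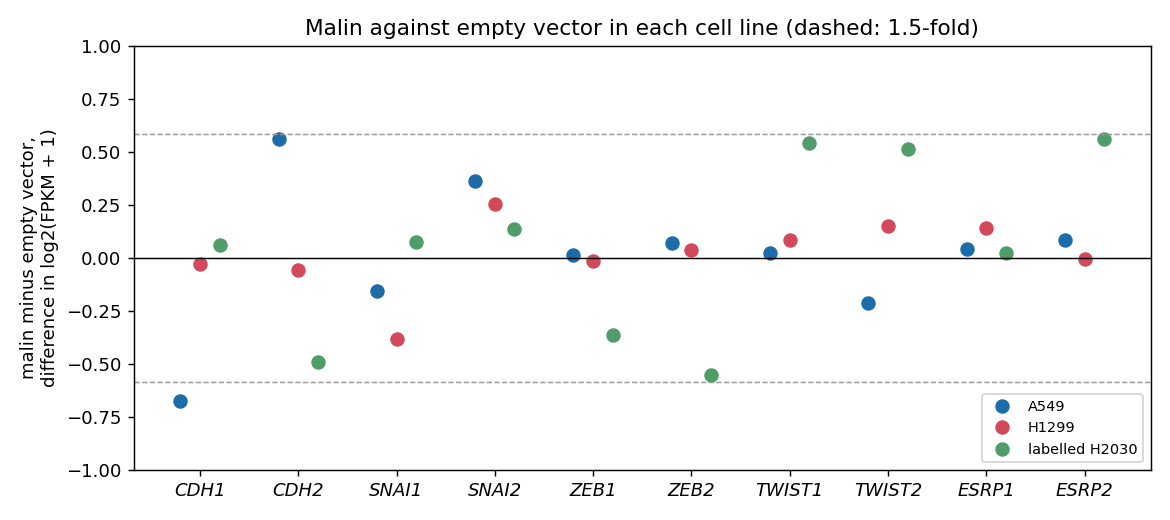
Malin minus empty vector in log2(FPKM + 1) for each of the 10 genes, with 1 point per cell line and dashed lines at 1.5-fold. CDH1 in A549 (-0.68) is the point beyond the lines, and CDH2 is at 0.56 in A549, -0.06 in H1299 and -0.49 in the libraries labelled H2030.

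Genes around the cadherins and their regulators were read from 8 lists. Members passed the limma test between lines in every list, and none did between the vectors. Each list's median is given in log2(FPKM+1) beside the median over all tested genes, which was 0.09 for H1299 minus A549, 0.29 for the libraries labelled H2030 minus A549, 0.22 for those minus H1299 and -0.0071 for malin minus empty vector. The list medians between vectors ran from -0.08 to 0.08. The counts stand beside the shares of all tested genes called. These were 34.5% higher and 27.2% lower for H1299 minus A549, and 45.0% and 22.1% for the libraries labelled H2030 minus A549. For those minus H1299 they were 40.9% and 23.8%. After median-of-ratios scaling the shares were 31.3% and 30.7%, 30.5% and 34.1%, and 30.6% and 32.7% in the same order. Of the 124 list genes tested, 15 had a mean of 1 FPKM or more in only 1 line. Of these, 8 were among the epithelial genes and 4 among the mesenchymal genes, and the others were CDH4, CELF2 and FGFR2. The counts and medians of their lists rest in part on genes tested because they were high in 1 line.

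Of 10 tested catenins and partners of E-cadherin, 3 were higher and 5 lower in H1299 than in A549 (list median -0.18), where 61.6% of all genes were called. JUP, which encodes the junctional catenin plakoglobin, was at 63.4 and 47.7 FPKM in A549, 2.51 and 3.22 in H1299, and 48.3 and 39.9 in the libraries labelled H2030, and fell by 3.86 in H1299 against A549. PLEKHA7, a junction adaptor, was also lower there (-1.67). CTNNBIP1, an inhibitor of beta-catenin, was higher in H1299 (2.83) and in the libraries labelled H2030 (1.60) than in A549. JUP and PLEKHA7 are thus low in the same line as CDH1.

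Of 20 other cadherins, 2 reached the minimum. CDH4 (R-cadherin) was at 2.83 and 4.83 FPKM in A549, 0.01 and 0.05 in H1299, and 1 and 0.64 in the libraries labelled H2030. It reached the minimum only through A549, so no test of it is given. CDH24 was higher in the libraries labelled H2030 than in A549 (0.59), a call that median-of-ratios scaling ended. The 20 genes summed to 4.20 to 11.3 FPKM a library, less than CDH2 alone in each of the 6.

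Of 18 tested epithelial genes, among them targets of SNAI and ZEB factors, 0 were higher and 11 lower in H1299 than in A549 (list median -0.76), against 34.5% and 27.2% of all genes. The libraries labelled H2030 had 8 higher and 7 lower than A549 (-0.09), against 45.0% and 22.1% of all genes. They had 11 higher and 3 lower than H1299 (1.5), against 40.9% and 23.8%. Among the higher in both, MARVELD3, SPINT1, MAL2, CDS1 and GRHL1 reached the minimum only through the libraries labelled H2030. CLDN3, KRT19 and ELF3 reached it only through A549 and are among the lower in both comparisons with A549. The direction of these calls followed from the minimum. SPINT2, a membrane protease inhibitor, was at 147.1 and 158.3 FPKM in A549, 3.04 and 3.51 in H1299, and 36.6 and 31.2 in the libraries labelled H2030. The epithelial factor ELF3 was at 62.6 and 35.3 FPKM in A549 and at most 0.04 elsewhere, and the keratin KRT19 was at 42.0 and 48.1 FPKM in A549 and at most 0.07 elsewhere. Outside the naming rule and picked after its values were seen, the adhesion protein EPCAM was at 1.75 and 0.95 FPKM in A549, 0.17 and 0.19 in H1299, and 8.55 and 5.41 in the libraries labelled H2030, an example of the 8 genes higher there than in A549. The keratins KRT8 and KRT18 were lower in the libraries labelled H2030 than in A549 (-3.67 and -3.85) and than in H1299 (-1.44 and -3.20), in the same libraries that had the most ESRP2.

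Of 21 tested mesenchymal genes, 8 were higher and 11 lower in H1299 than in A549 (list median -0.81), against 34.5% and 27.2% of all genes, and 8 were higher and 12 lower in the libraries labelled H2030 than in A549 (-0.83), against 45.0% and 22.1%. COL3A1, ITGB3, THY1 and PRRX1 each reached the minimum through only 1 line. The direction of their calls in comparisons with that line followed from the minimum. S100A4 was at 1126 and 1107 FPKM in A549 and at 1.34 to 4.28 in the other libraries. The receptor kinase AXL was at 63.7 and 95.4 FPKM in A549, 305.9 and 285.6 in H1299, and 1.06 and 0.64 in the libraries labelled H2030. SPARC, a matrix protein, was at 4.99 and 4.58, 0.22 and 0.26, and 64.1 and 47.2 FPKM in the same order. The 3 genes each had their highest level in a different line.

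Of 23 tested genes of TGF-beta signalling, the pathway known to induce SNAI and ZEB factors, 6 were higher and 12 lower in H1299 than in A549 (-0.59), and 5 higher and 10 lower in the libraries labelled H2030 than in A549 (-0.32), or 4 and 14 after median-of-ratios scaling (-0.64). TGFBR2, the type II receptor, was lower than in A549 in H1299 (-1.02) and in the libraries labelled H2030 (-3.40). So were the transducer SMAD3 (-1.12 and -2.76) and the ligand TGFB2 (-1.97 and -3.59). Outside the naming rule, other ligands differed from this. TGFB1 was higher in H1299 than in A549 (0.93) and lower in the libraries labelled H2030 (-1.58). TGFB3 was higher than in A549 in both (1.21 and 1.02). ID2, an inhibitor of basic helix-loop-helix factors, was lower in H1299 than in A549 (-3.88) and than in the libraries labelled H2030, which exceeded H1299 by 4.20.

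Of 22 tested cofactors and turnover factors of SNAI, ZEB and TWIST, 10 were higher and 3 lower in H1299 than in A549 (0.23), and 13 higher and 4 lower in the libraries labelled H2030 than in A549 (0.52). After median-of-ratios scaling the latter became 8 higher and 7 lower (0.18). EZH2, the histone methyltransferase of Polycomb complexes, was higher in H1299 (0.68) and in the libraries labelled H2030 (1.5) than in A549, and so was TCF4, a dimer partner of TWIST proteins (1.16 and 1.62).

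Of 17 tested splicing regulators other than ESRP genes, 5 were higher and 3 lower in H1299 than in A549 (0.12), against 34.5% and 27.2% of all genes. This became 3 higher and 4 lower after median-of-ratios scaling. In the libraries labelled H2030, 7 were higher and 3 lower than in A549 (0.33), against 45.0% and 22.1% of all genes, or 5 and 4 after scaling (-0.03). Compared with H1299, 7 were higher and 1 lower (0.16), against 40.9% and 23.8% of all genes, or 6 and 4 after scaling (-0.11). RBM47, another RNA-binding protein of the epithelial programme, was at 16.5 and 16.1 FPKM in A549, 0.11 and 0.07 in H1299, and 3.38 and 3.61 in the libraries labelled H2030, an order in which H1299 is lowest as for CDH1. CELF2 was at most 0.03 FPKM in A549 and H1299, and at 11.1 and 11.7 in the libraries labelled H2030. It reached the minimum only through those libraries, so the direction of its calls there followed from the minimum.

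Of 12 genes with exons that ESRP proteins regulate, 2 were higher and 2 lower in H1299 than in A549 (0.07). In the fit of only those lines it was 5 and 4, where 42.9% of all genes were called higher and 34% lower. The libraries labelled H2030 had 3 higher and 4 lower than A549 (-0.18), or 3 and 8 after median-of-ratios scaling. CD44, the hyaluronan receptor, was at 110.6 and 138.0 FPKM in A549, 101.3 and 102.0 in H1299, and 0.96 and 0.55 in the libraries labelled H2030. FGFR2, a fibroblast growth factor receptor, has an epithelial and a mesenchymal splice form. It was at most 0.35 FPKM in A549 and H1299, and at 7.51 and 8.96 in the libraries labelled H2030. FGFR2 reached the minimum only through those libraries, so the direction of its calls there followed from the minimum. The values are per gene and hold no information on exon use. The colour map sets the genes of the 8 lists side by side.

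**Figure D5:**
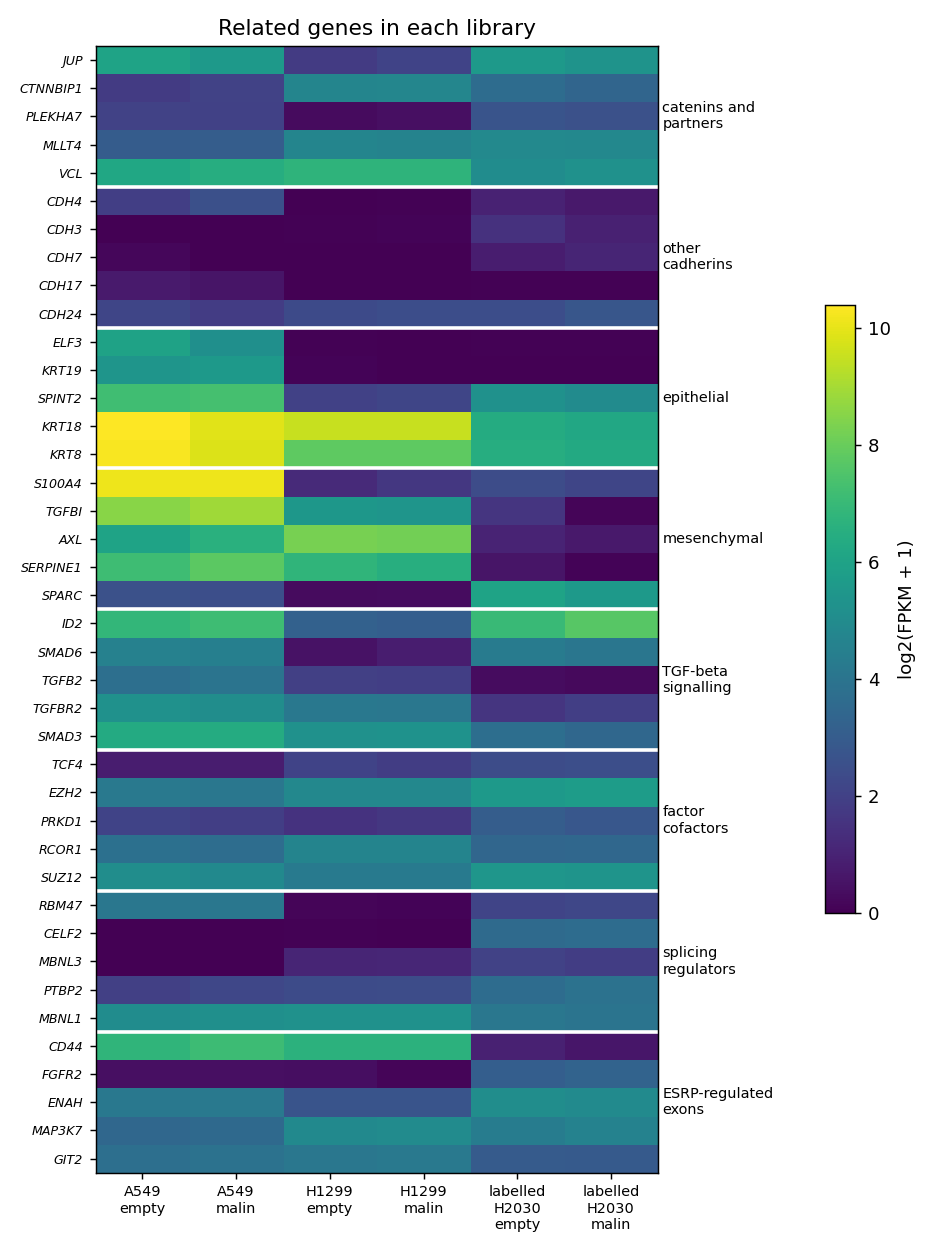
Level as log2(FPKM + 1) (colour scale) of up to 5 genes from each of 8 lists (rows) in the 6 libraries (columns). JUP, SPINT2 and RBM47 are lowest in H1299, KRT8 and KRT18 fall from A549 to the libraries labelled H2030, and CELF2 and FGFR2 are above 7 FPKM in the libraries labelled H2030 only.

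For each tested gene, the 3 protein-coding genes with the most similar profile were found by the root-mean-square distance between centred log2(FPKM+1) values over the 6 libraries. ZEB1 was nearest to MIER3 (0.02), TIGD6 (0.03) and GTPBP5 (0.04), and ZEB2 to PPP1R1C (0.04), WNK4 (0.06) and TMEM242 (0.07). TWIST1 was nearest to TEAD3 (0.03), CHD4 (0.06) and RASSF4 (0.07), and ESRP2 to RGMA (0.03), SBK1 (0.08) and NSG1 (0.08). TWIST2 was nearest to TYSND1 (0.08), GEMIN4 (0.10) and MEGF6 (0.11), and SNAI1 to ANKFY1 (0.09), RUNDC1 (0.09) and PHYH (0.10). CDH2 had BMI1 (0.12), GREB1 (0.13) and OTUD1 (0.13), and CDH1 had the most distant neighbours of the 8, KHK (0.16), CYP26B1 (0.17) and TOX2 (0.17). None of the 8 had another of the 10 genes among its 3 nearest. The distances were taken over 12183 genes and describe these 6 libraries only.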

How the data were processed

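RNA sequencing of 6 libraries was analysed from gene tables. The deposited values are FPKM per the file headers. Tools named without versions in the submitters' processing notes are STAR, Cufflinks, cutadapt and FastQC, with hg38 as the build. FPKM follows the library total, so a shift in abundant genes moves all others. Groups followed the vector and the line in the labels, with 1 library each. Of 19903 genes, 37 had blank or date-like symbols and 35 of these were restored by Entrez identifier. RefSeq's table (GRCh38.p14) matched 19770 and marked 17541 as protein coding.

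Log2(FPKM+1) of 12184 protein-coding genes (mean FPKM 1 or more) was fitted over all 6 libraries with limma 3.58.1 in R 4.3.3 (line and vector terms, intensity trend), with Benjamini-Hochberg adjustment over all genes at 0.05. It left 2 residual degrees of freedom. The pairs are by cell line, as the labels give it. On simulated data (12184 genes, 200 changed), 0%, 80.5% and 97.5% of genes were recovered between vectors at log2 changes of 0.5, 1 and 2, and 0%, 73% and 98% between H1299 and A549, with 0 false calls. Changes were placed only in genes of higher mean level, and all lines were given the same baseline. The vector differences that served as noise were shuffled over genes.

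No counts were used. Fragment numbers were estimated from the steps between low FPKM values, using single-transcript genes of 600 to 2000 bases (length less 100 bases). From 78.1% to 81.1% of these came out whole within 0.2, against 40% for a random step, although the step was itself chosen on them. This gave 8300000 to 10700000 fragments a library. Intervals on them are exact binomial at 95% and cover counting error only.

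The 10 genes and the 8 lists were chosen with earlier results of these data known. All 10 were named with every value, from each list up to 5 genes with the largest difference between lines, and for each tested gene its 3 nearest profiles. Scripts used Python 3.11.15, pandas 2.3.3 and scipy 1.17.1. Alternatives were other pseudocounts, filters, scalings, gene classes and model terms, and leaving out each library. Exon use was not analysed here.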

Additional observations from a re-analysis of the deposited data

Results flagged for a closer look

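CDH2 differed in opposite directions between the vector libraries of 2 pairs. The malin to empty ratio was 1.515 in A549 (about 809 against 529 fragments) and 0.705 in the libraries labelled H2030 (about 1463 against 1741 fragments), and the counting intervals exclude equality in both. The difference between lines was not tested, since each rests on 1 library per vector. The malin column of the pair labelled H2030 is headed with the name of another line, so whether 0.705 compares vectors within 1 line was not settled. The vector difference over all tested genes had a standard deviation of 0.40 in the libraries labelled H2030 and 0.18 in A549.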

How the results depend on the processing

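With 2 libraries a line and 1 a vector in each, the fit had few degrees of freedom, and small differences were not detectable at this depth and size. The 24 differences between lines gave 366 values under the alternatives, of which 330 kept their direction and their side of the threshold, 14 lost the call, 15 gained one and 7 turned direction. The 8 differences between vectors gave 90 values, of which 84 kept both and 6 turned direction. For CDH1, the libraries labelled H2030 minus A549 turned to -0.15 under median-of-ratios scaling and -0.43 under quantile normalization, and ran from -0.24 to 0.45 with libraries left out (-0.10 without the malin library labelled H2030). For CDH2, malin minus empty vector turned to -0.0147 with a pseudocount of 5 and ran from -0.27 to 0.25 with lines left out. With lines left out, malin minus empty vector ran from -0.35 to 0.0155 for CDH1, from -0.19 to 0.0004 for ZEB1, from -0.26 to 0.0531 for ZEB2 and from -0.0307 to 0.33 for TWIST2. With libraries left out, the libraries labelled H2030 minus H1299 ran from -0.35 to 0.14 for TWIST1, and H1299 minus A549 from -0.23 to 0.0948 for ESRP2 (0.0256 without the empty-vector A549 library). Called genes numbered 7510 between H1299 and A549 (4564 to 9393 with libraries left out, of which 4747 and 4826 without the empty and malin A549 libraries and 4583 without the malin H1299 library), 8167 between the libraries labelled H2030 and A549 (5729 to 9217), and 7877 between those and H1299 (5227 to 8983). Of the 10 genes, 5 were called in each line comparison, and 5 to 7, 3 to 7 and 3 to 6 with libraries left out. The 3 called against A549 came without either A549 library, and the 3 called against H1299 without its malin library. The fit with a mean of at least 1 FPKM tested 8 of the 10 genes. With a mean of at least 5 FPKM, only 2 of the 10 genes were tested and 0, 2 and 1 were called. The shares of all 9087 genes called there were 64.1%, 66.9% and 64.3% in the same order. Between vectors 0 genes were called and 0 to 1 with lines left out (1 without the libraries labelled H2030). The fit with no replicate block, which drops the pairing by cell line, called 0 genes between vectors and 0 of the 10.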
